A study of Mus musculus with 18 samples.

Results

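The 10 genes described here encode 8 integrin subunits and 2 integrin ligands: *Itga4*, *Itgb1*, *Itgb7*, *Itgal*, *Itgb2*, *Itgav*, *Itga6* and *Itgax*, with *Icam1* and *Icam2*. They were taken from a list, by matching each gene identifier to its symbol in the GRCm38 annotation, and all 10 were found among the 51912 genes of the table. RNA was sequenced from splenic B cell populations of WT and *Sh3gl1*-/- C57BL/6 mice, which were littermates. *Sh3gl1* encodes endophilin A2, a membrane-curving protein of endocytosis, and the mice lack it in the whole body and not in B cells alone, so the cells also developed in a mutant host. There were 6 groups of 3 libraries, each library a biological replicate: sorted transitional B cells, an immature stage, and sorted follicular B cells, the main mature subset, *ex vivo* and untreated, and follicular B cells kept for 14 h in culture with CD40L, which engages CD40 as activated helper T cells do, each from WT and from *Sh3gl1*-/- mice. The time is that of the labels, whereas the study's methods say overnight, and a caption gives a longer time. They are called TRANS, FO and CD40L. Ages were not given in the sources used here. There was no group cultured without CD40L, so the effects of culture and of CD40L cannot be told apart.

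Integrins are adhesion receptors made of 1 α and 1 β chain. They sit on leukocytes in a low-affinity form until signals from chemokine or antigen receptors reach the adaptors talin and kindlin at the β tail and open the receptor for its ligand. On B cells the α4 chain pairs with β1 to bind VCAM-1 and fibronectin, or with β7 to form LPAM-1, which binds MAdCAM-1 in gut-associated tissue. The αL chain pairs with β2 to form LFA-1, whose ligands are ICAM-1 and ICAM-2, and which B cells use in contacts with T cells, stroma and antigen-bearing surfaces.

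Library totals ranged from 12404665 to 18366011 expected counts, and the floor of 3 counts used for undetected genes was worth 0.163 to 0.242 CPM (counts scaled to TMM-adjusted library size), which covers counting error only. *Sh3gl1* had 377 to 929 counts in the 9 WT libraries and 1 to 22 in the 9 *Sh3gl1*-/- libraries, so no library went against its genotype label. The 7 B cell markers summed to 8671 to 18865 CPM in every library, and transitional cells carried more of the immature-stage marker *Cd93* (728 to 1415 counts) than follicular cells (165 to 354 counts). Myeloid and T cell transcripts were present throughout. The 10 macrophage and monocyte markers summed to 578 to 1012 CPM in transitional cells, 137 to 332 in follicular cells and 51.4 to 99.7 after CD40L, and the 10 neutrophil markers reached 565 CPM in *Sh3gl1*-/- transitional replicate 1 and 788 CPM in *Sh3gl1*-/- follicular replicate 1. The 10 T and NK cell markers summed to 196 to 234 CPM in WT and 302 to 369 CPM in *Sh3gl1*-/- follicular cells. These values are repeated beside the members they moved with. In bulk RNA, fewer cells of a type and less RNA per cell cannot be told apart.

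Levels were compared between genes only in TPM, which is scaled for transcript length. In WT follicular cells *Icam2*, the constitutive ICAM of lymphocytes, stood highest at 159 ± 9.15 TPM (mean ± SD, n = 3). *Itgb2* (68.0 ± 7.97 TPM) and *Itga4* (65.9 ± 3.75) came next and overlapped each other. *Itgal* (32.4 TPM) and *Icam1* (29.9 TPM) also overlapped, as did *Itgb7* (21.8 TPM) and *Itgav* (19.2 TPM). *Itga6* (7.32 TPM) and *Itgb1* (5.09 TPM) overlapped below them, and *Itgax*, the CD11c chain best known from dendritic cells, was lowest at 0.447 TPM. In WT transitional cells the same 3 genes led, *Icam2* at 185 TPM, *Itgb2* at 113 TPM, and *Itga4* at 79.5 TPM, followed by *Icam1* at 37.6 TPM, here clear of *Itgal* at 28.3 TPM. No neighbours in that order overlapped in WT transitional cells, and only *Itgb7* and *Itgb1* did in *Sh3gl1*-/- transitional cells. After CD40L *Icam1* was the highest of the 10 genes in both genotypes, at 176 ± 41.8 TPM in WT and 164 ± 47.8 TPM in *Sh3gl1*-/- cells, and no other member's range reached it. *Icam2* had dropped to 30.8 TPM in WT, where it overlapped *Itga4* at 30.1 TPM.

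**Figure D1:**
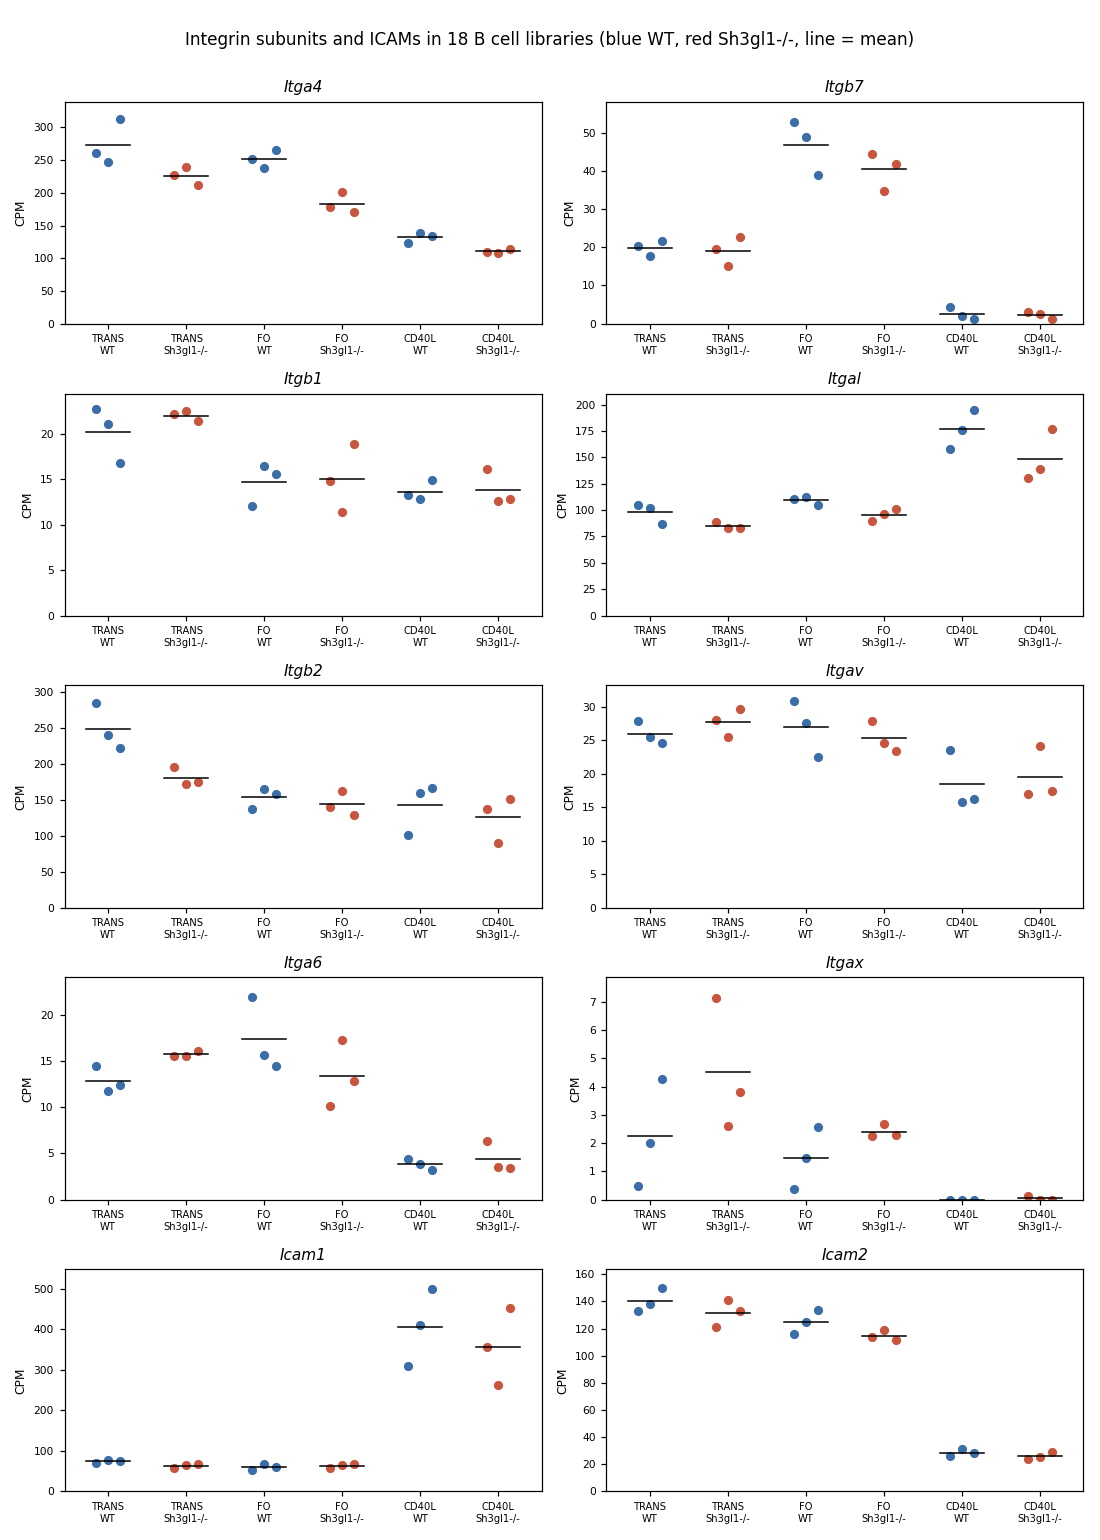
CPM (y axes, linear from 0, scaled per gene) of the 10 genes in the 18 libraries, 3 points per group in replicate order, WT in blue and *Sh3gl1*-/- in red, with a line at each group mean. *Icam1* is high in the 6 CD40L libraries (263 to 499 CPM), *Itgb7* is high in the 6 follicular libraries (34.7 to 52.8 CPM) and low after CD40L (1.13 to 4.48 CPM), and the red *Itga4* points lie below the blue ones in each state.

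Adjusted p values here and below come from the quasi-likelihood test of edgeR, corrected by the Benjamini-Hochberg method for every gene tested, and genes with one under 0.05 are said to be called. Folds carry 95% confidence intervals. The comparison of CD40L-cultured with *ex vivo* follicular cells asks how adhesion genes stand after stimulation through CD40. Of the 10 members, 8 were called in WT cells, 2 higher (*Icam1* and *Itgal*) and 6 lower (*Itgb7*, *Icam2*, *Itga6*, *Itga4*, *Itgav* and *Itgax*). In *Sh3gl1*-/- cells 7 passed, the same genes without *Itgav*. Much of the transcriptome moved with them: 49.3% of genes tested were called in WT cells (23.6% higher, 25.7% lower) and 42.4% in *Sh3gl1*-/- cells (20.6% higher, 21.8% lower). Beside that background, 2 of 10 higher was near the share of all genes, and 6 and 5 of 10 lower were above it, in a list too short to draw anything particular from. The β chains *Itgb1* and *Itgb2* were not called in either genotype.

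*Icam1*, whose product is the inducible ligand of LFA-1, rose the most. Its WT levels were 53.2, 67.7 and 59.2 CPM *ex vivo* and 309, 409 and 499 CPM after CD40L. The *Sh3gl1*-/- levels were 57.4, 65.2 and 67.2 CPM *ex vivo* and 356, 263 and 453 CPM after CD40L. Every cultured library lay far above every uncultured one, with a wide spread among the cultured libraries themselves. The fold was 6.63 in WT (95% confidence interval 4.89 to 8.99, log2 2.73 ± 0.20 SE, adjusted p = 1.7e-07) and 5.57 in *Sh3gl1*-/- cells (4.12 to 7.53, log2 2.48 ± 0.20, adjusted p = 4.7e-07). The upstream region of *Icam1* is shown because CD40 is known to signal through NF-κB, and *Icam1* is a textbook NF-κB target. It lies at chr9:21015690-21015939 on the plus strand (RefSeq, GRCm38.p6), the 250 bases before the RefSeq start, which itself lies 45 bases upstream of the start of the gene in the annotation used for the counts (ENSMUSG00000037405, chr9:21015985-21028817). The capitals mark the letters GGAAATTCC, a κB-like motif searched on both strands, which begins 153 bases before the RefSeq start and 198 bases before the annotated one.
Icam1: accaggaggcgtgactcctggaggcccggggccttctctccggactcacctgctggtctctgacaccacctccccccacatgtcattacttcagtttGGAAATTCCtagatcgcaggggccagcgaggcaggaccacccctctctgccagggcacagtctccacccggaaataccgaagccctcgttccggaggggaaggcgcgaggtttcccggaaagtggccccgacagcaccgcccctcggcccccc
The motif was chosen after this sequence had been seen. It stood in 104 of 32817 promoter windows of 300 bases (0.317%), on either strand. The standard NF-κB consensus was found in 1478 windows (4.50%) and in 0 of the 6 members with a window (*Icam1*, *Itga4*, *Itgav*, *Itgax*, *Itgb1* and *Itgb7*). A match is a description of letters, and binding was not measured.

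*Icam2*, on chr11:106377656-106388075, moved the other way from *Icam1*. WT cells had 116, 125 and 134 CPM *ex vivo* and 26.2, 31.3 and 28.4 CPM after CD40L. *Sh3gl1*-/- cells had 114, 119 and 111 CPM, against 24.2, 25.5 and 29.2 CPM after CD40L. The groups did not come near each other, and the replicates were tight. *Icam2* was 4.45-fold lower in WT (3.76 to 5.27, adjusted p = 6.6e-09) and 4.41-fold lower in *Sh3gl1*-/- cells (3.72 to 5.22, adjusted p = 9.1e-09). In TPM the 2 ligands changed places: *Icam1* made up 15.8 ± 1.31% of the summed *Icam1* and *Icam2* TPM in WT follicular cells and 84.7 ± 3.35% after CD40L. In *Sh3gl1*-/- cells the share went from 17.6 ± 1.36% to 84.5 ± 2.49%. With 3 libraries against 3, the two-sided exact permutation p of either shift was 0.1, the smallest this design allows (0.175 after adjustment over 35 such tests).

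*Itgb7*, the β chain that makes LPAM-1 with α4, fell furthest among the members that were detected in every library of both states. It had 52.8, 48.9 and 39.0 CPM in WT follicular libraries and 4.48, 2.14 and 1.28 CPM after CD40L, the latter from 65, 32 and 21 counts. In *Sh3gl1*-/- cells it had 44.4, 34.7 and 41.9 CPM and then 2.96, 2.56 and 1.13 CPM, the latter from 42, 32 and 18 counts. The 6 cultured libraries all lay below the 12 uncultured ones. *Itgb7* (ENSMUSG00000001281, chr15:102215995-102231944, minus strand) was 18.3-fold lower in WT (10.6 to 31.5, log2 -4.19 ± 0.37, adjusted p = 7.0e-07) and 18.6-fold lower in *Sh3gl1*-/- cells (10.7 to 32.5, log2 -4.22 ± 0.37, adjusted p = 1.0e-06). Leaving out WT CD40L replicate 1, the library with the most *Itgb7* and the least *Icam1* of its group, moved the WT value to a log2 change of -4.82. The 10 T and NK cell markers were lower after CD40L as well, all 10 called in each genotype. Their part in the drop of *Itgb7*, which T cells also express, was not tested.

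*Itga4*, the α4 chain (ENSMUSG00000027009, chr2:79255426-79333123), fell less than its β7 partner. WT levels went from 252, 238 and 265 CPM to 124, 139 and 135 CPM. *Sh3gl1*-/- levels went from 179, 202 and 170.5 CPM to 109, 108 and 115 CPM. The cultured and uncultured libraries were apart in each genotype. The fold decrease was 1.93 in WT (1.67 to 2.23, adjusted p = 2.8e-06) and 1.68 in *Sh3gl1*-/- cells (1.46 to 1.94, adjusted p = 3.3e-05). The locus overlaps *Cerkl* on the opposite strand, which had 4123 counts over all libraries. The kit is described as stranded, but whether counting used the strand is not given in the sources used here. *Itgb1*, the other β partner of α4 (chr8:128685654-128733200), did not pass in either genotype: it had 12.1 to 16.5 CPM in WT follicular cells and 12.8 to 14.9 CPM after CD40L, with a log2 change of -0.13 (95% interval -0.57 to 0.30).

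*Itgal*, the αL chain of LFA-1 (chr7:127296260-127335138), was the only integrin subunit of the 8 that rose. WT libraries had 111, 113 and 104 CPM *ex vivo* and 158, 176 and 195 CPM after CD40L, and *Sh3gl1*-/- libraries had 89.3, 96.2 and 101 CPM and then 130.0, 139 and 177 CPM. No cultured library reached down to an uncultured one of its genotype. The rise was 1.58-fold in WT (1.31 to 1.91, adjusted p = 6.0e-04) and 1.54-fold in *Sh3gl1*-/- cells (1.27 to 1.85, adjusted p = 0.0013). Its partner *Itgb2* (chr10:77530252-77565708) overlapped between the states, with 138, 165 and 158 CPM in WT follicular cells and 102, 159.7 and 167 CPM after CD40L. The *Itgb2* log2 change was -0.13 in WT (-0.56 to 0.29) and -0.21 in *Sh3gl1*-/- cells (-0.63 to 0.22), and neither passed. *Itgb2* also serves the other β2 integrins of myeloid cells, and the summed macrophage and monocyte markers were lower after CD40L (137 to 180.2 CPM against 71.0 to 99.7 CPM in WT), although *Adgre1* among them was higher. Their part in the *Itgb2* level was not tested.

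*Itga6*, a laminin-binding α chain (chr2:71745616-71858416), dropped in both genotypes. Its WT levels were 22.0, 15.7 and 14.5 CPM before and 4.41, 3.87 and 3.18 CPM after culture, and the *Sh3gl1*-/- levels were 10.1, 17.3 and 12.9 CPM before and 6.35, 3.51 and 3.38 CPM after. The decrease was 4.65-fold in WT (3.02 to 7.14, adjusted p = 2.5e-05) and 3.09-fold in *Sh3gl1*-/- cells (2.02 to 4.72, adjusted p = 4.4e-04). The αV chain *Itgav*, a partner of several β chains in receptors for matrix proteins and latent TGF-β, overlapped between states (30.8, 27.5 and 22.5 CPM against 23.5, 15.7 and 16.3 CPM in WT). Its change passed in WT (log2 -0.57 ± 0.20, adjusted p = 0.026) but not when any 1 of 4 libraries was left out (adjusted p = 0.084 to 0.12 without WT follicular replicate 1 or 2 or WT CD40L replicate 2 or 3). In *Sh3gl1*-/- cells its log2 change was -0.39 (-0.81 to 0.03, adjusted p = 0.13).

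*Itgax* (chr7:128129547-128150657) was at or near 0 after CD40L. It had 6, 24 and 34 counts in WT and 30, 42 and 32 counts in *Sh3gl1*-/- follicular libraries, against 0, 0 and 0 counts in WT and 2, 0 and 0 counts in *Sh3gl1*-/- CD40L libraries. Against a floor of 3 counts over the group, WT cells after CD40L were at least 21.8-fold lower, and in *Sh3gl1*-/- cells the ratio of the 2 group sums was 51.6, with a 95% counting interval of 13.9 to 432. Both values pool the reads of a group, so they cover counting error only and not the spread between libraries. The summed dendritic cell markers were 24.7 to 38.7 CPM in follicular and 30.9 to 44.6 CPM in CD40L libraries, a sum that hides opposite changes. *Cd209a*, *Siglech*, *Ccr9* and *Clec9a*, 4 of the 7 tested, were called lower in each genotype. *Zbtb46* was called higher in both (log2 2.25 in WT and 2.72 in *Sh3gl1*-/- cells, 54 to 95 counts against 305 to 494), and *Flt3* in *Sh3gl1*-/- cells. *Clec9a* in WT and *Clec4a4* and *Clec10a* in *Sh3gl1*-/- CD40L libraries were at 0. Of 9 macrophage and monocyte markers tested, 7 were called lower in each genotype, with *C1qc* and *Mrc1* at 0 in both CD40L groups, and *Adgre1* was called higher in both (log2 3.01 in WT and 2.16 in *Sh3gl1*-/- cells, 65 to 153 counts against 387 to 1173). What part either cell type had in *Itgax* was not tested.

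The response to CD40L was next compared between genotypes, as a difference of differences on the 12 follicular libraries. None of the 10 members was called (0% of 14460 genes were called by edgeR in all, 1278 had an unadjusted p under 0.05, and DESeq2 called 37 genes, none of them members). The difference was -0.25 for *Icam1* (95% interval -0.83 to 0.33), -0.03 for *Itgb7* (-1.08 to 1.02), 0.20 for *Itga4* (-0.09 to 0.49) and 0.01 for *Icam2* (-0.32 to 0.35), all on the log2 scale. The intervals of *Itga4*, *Icam2* and *Itgal* (-0.43 to 0.34) were the narrower ones, that of *Itga6* ran from -0.27 to 1.44, and that of *Itgax* from -1.63 to 5.60, so an equal response was not shown.

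**Figure D2:**
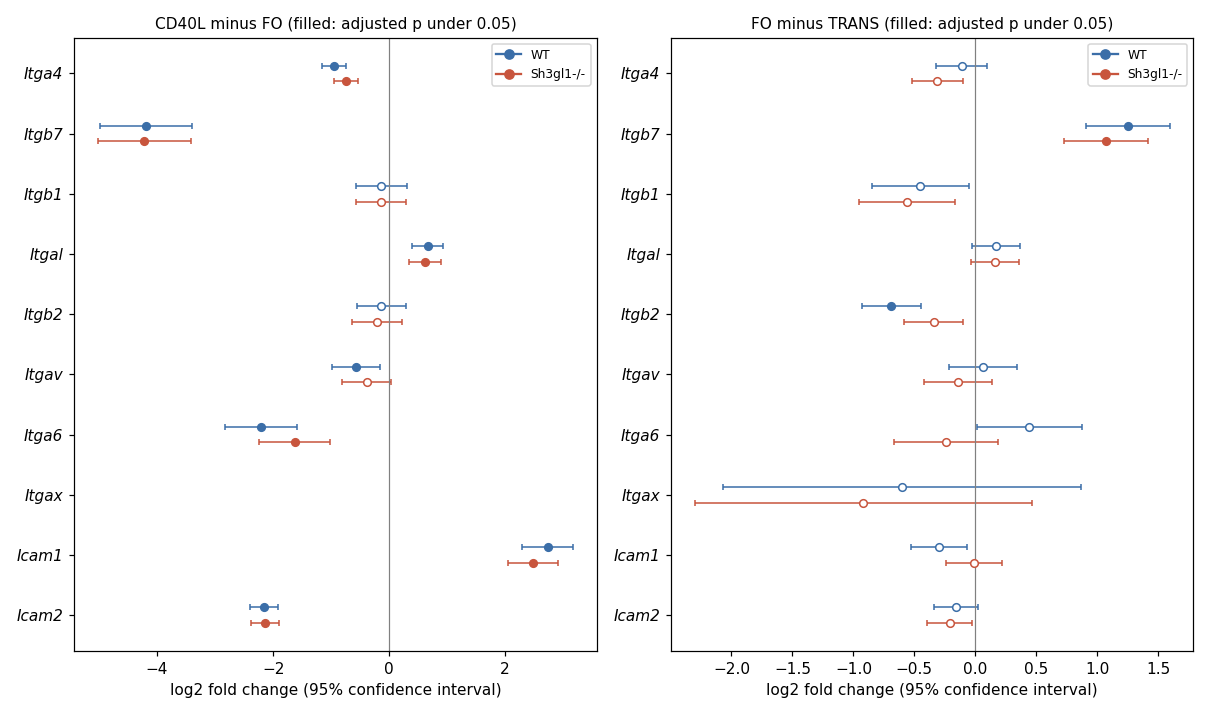
Log2 fold changes (x axes) with 95% confidence intervals of the members, CD40L minus FO on the left and FO minus TRANS on the right, WT in blue and *Sh3gl1*-/- in red, filled where the adjusted p was under 0.05. *Itgax* is left out on the left because its cultured libraries were at or near 0 counts. On the left *Icam1* and *Itgal* lie to the right of 0 and *Itgb7*, *Icam2*, *Itga6* and *Itga4* to the left in both genotypes, and on the right *Itgb7* is the only gene filled in both.

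Follicular cells were compared with transitional cells, their precursors, within each genotype. *Itgb7* was higher in follicular cells of both genotypes and *Itgb2* was lower in WT follicular cells, which made 2 of 10 members called in WT (25.9% of all genes tested) and 1 of 10 in *Sh3gl1*-/- cells (10.4%). *Itgb7* had 20.2, 17.8 and 21.5 CPM in WT transitional libraries and 39.0 to 52.8 CPM in WT follicular ones. *Sh3gl1*-/- transitional libraries had 19.5, 14.98 and 22.6 CPM, against 34.7 to 44.4 CPM in follicular cells. The 2 stages did not overlap. The increase was 2.38-fold in WT (1.87 to 3.02, adjusted p = 1.1e-04) and 2.11-fold in *Sh3gl1*-/- cells (1.66 to 2.67, adjusted p = 6.4e-04). It passed in each of the 19 alternative fits of each genotype.

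*Itgb2* had 285, 241 and 222 CPM in WT transitional cells and 138, 165 and 158 CPM in WT follicular cells, a decrease of 1.61-fold (1.36 to 1.91, adjusted p = 6.7e-04). In *Sh3gl1*-/- cells it had 195, 173 and 174 CPM and 139.7, 163 and 129 CPM. Transitional cells were again the higher group, without overlap, but the change did not pass (log2 -0.34 ± 0.11, adjusted p = 0.071). The difference between the genotypes was 0.35 (0.01 to 0.69, unadjusted p = 0.046, adjusted p = 0.36). The macrophage and monocyte markers moved with *Itgb2* between stages, with all 10 of 10 called lower in WT follicular cells and 7 of 10 in *Sh3gl1*-/- cells (639.6 to 753 CPM against 137 to 180.2 CPM in WT). *Vcam1*, which splenic macrophages express, was also lower, at 1742 to 4917 counts in transitional and 104 to 387 counts in follicular libraries. The part of these cells in the *Itgb2* difference was not tested.

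**Figure D3:**
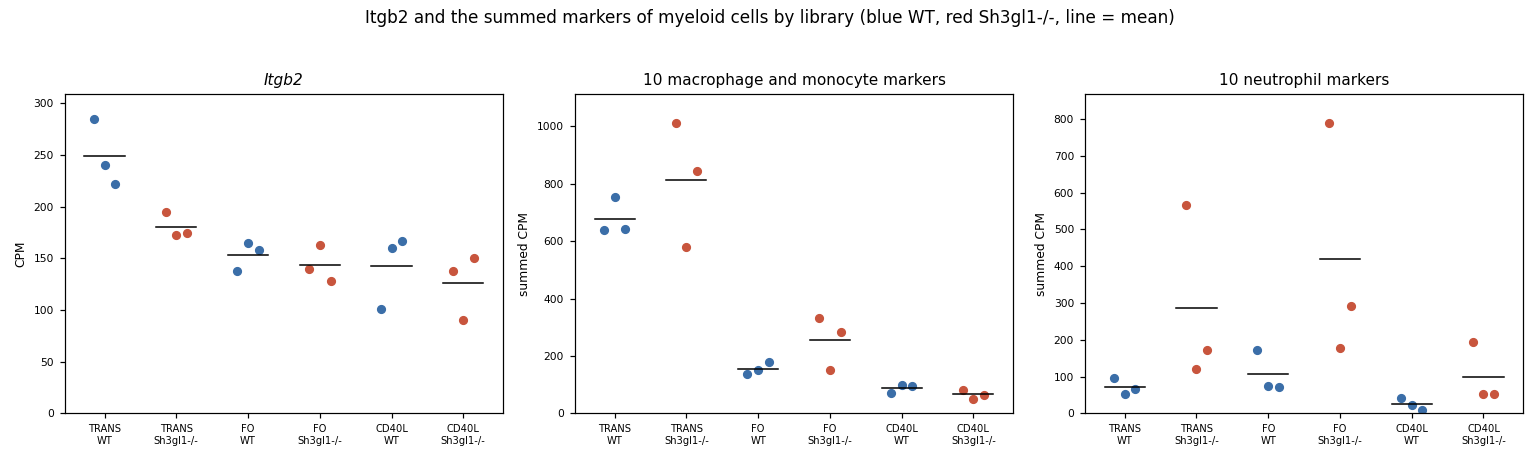
*Itgb2* in CPM (left), the summed CPM of 10 macrophage and monocyte markers (middle) and of 10 neutrophil markers (right), each y axis from 0, 3 points per group in replicate order, WT in blue and *Sh3gl1*-/- in red, with a line at the mean. Both *Itgb2* and the macrophage markers are higher in transitional than in follicular cells, but within transitional cells *Itgb2* is lower in the *Sh3gl1*-/- group while the macrophage sums of the genotypes overlap.

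Among the remaining members several lay near the threshold. Same-numbered transitional and follicular libraries of a genotype deviated together, and in a fit with the replicate number as a block within genotype *Icam1* was called lower in WT follicular cells (log2 -0.30, adjusted p = 0.015, against 0.052 without the block) and *Itga4* lower in *Sh3gl1*-/- follicular cells (log2 -0.31, adjusted p = 0.0099, against 0.058). DESeq2 also called *Icam1* in WT (adjusted p = 0.025) and *Itga4*, *Itgb2* and *Itgb1* in *Sh3gl1*-/- cells (0.019, 0.034 and 0.041), each lower in follicular cells. Most of the 19 alternative fits did not call these changes. *Icam1* was called in 6 of them, *Itga4* in 5, *Itgb2* in 4 and *Itgb1* in 3, with adjusted p up to 0.23, 0.22, 0.34 and 0.22. WT transitional *Icam1* levels were 69.2, 77.7 and 75.8 CPM, above the 53.2 to 67.7 CPM of WT follicular cells. *Itgb1* was lower in follicular cells in the estimate (log2 -0.45 in WT and -0.56 in *Sh3gl1*-/- cells) without passing (adjusted p = 0.088 and 0.069), with 16.8 to 22.7 CPM in the 6 transitional and 11.4 to 19.0 CPM in the 6 follicular libraries. The difference of the stage change between genotypes was called for 0 of 10 members by edgeR and DESeq2 (edgeR called 0.0686% of all genes, and 1992 had an unadjusted p under 0.05). Among the members 2 had an unadjusted p under 0.05, *Itgb2* and *Itga6*, the latter at -0.68 (-1.29 to -0.07, adjusted p = 0.31).

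Pairs of chains were then set side by side in TPM. Among the β partners of α4, *Itgb7* took 54.8 ± 4.21% of the summed *Itgb1* and *Itgb7* TPM in WT transitional cells, 80.8 ± 4.81% in follicular cells and 19.5 ± 9.87% after CD40L. The *Sh3gl1*-/- shares were 52.2 ± 7.97%, 74.6 ± 5.18% and 17.7 ± 6.04%. The stages and the culture did not overlap in either genotype (exact permutation p = 0.1 for each). *Itga4* exceeded *Itgb7* by a TPM ratio of 8.43 ± 0.60 in WT transitional, 3.10 ± 0.72 in WT follicular and 38.3 ± 24.9 in WT CD40L cells, the last spread between 13.4 and 63.1. For LFA-1, *Itgb2* exceeded *Itgal* 3.98 ± 0.19 times in WT transitional, 2.10 ± 0.25 times in follicular and 1.26 ± 0.28 times in CD40L cells. The *Sh3gl1*-/- ratio was lower in transitional cells, at 3.22 ± 0.22 without overlap (exact permutation p = 0.1), and was 2.25 ± 0.35 in follicular and 1.28 ± 0.32 in CD40L cells. Relative to both β partners together, *Itga4* stood at 4.62 ± 0.53 in WT and 3.36 ± 0.49 in *Sh3gl1*-/- transitional cells, again without overlap (exact permutation p = 0.1), and at 2.49 ± 0.47 and 1.97 ± 0.47 in follicular cells, where the genotypes overlapped (exact permutation p = 0.3). RNA ratios do not give the amounts of paired protein at the surface.

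**Figure D4:**
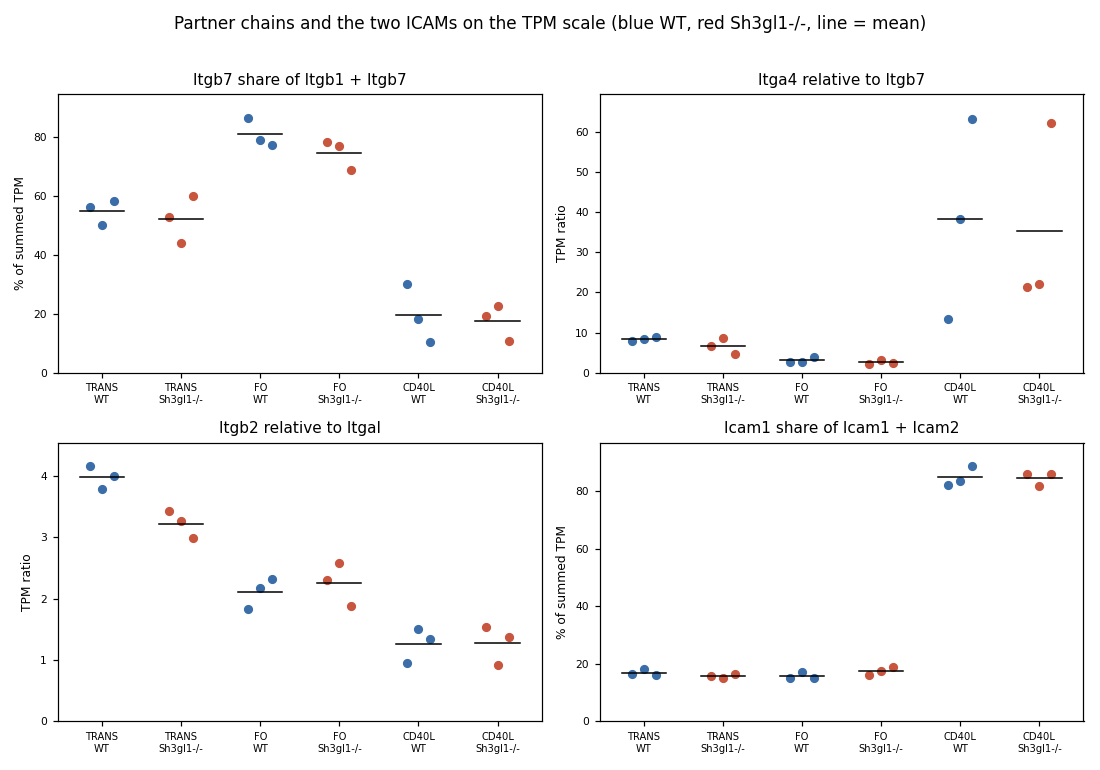
TPM shares and ratios of partner chains and of the ICAMs by library (y axes from 0), 3 points per group in replicate order, WT in blue and *Sh3gl1*-/- in red, with a line at the mean. The *Itgb7* share rises from transitional to follicular cells (44.0 to 59.9% against 68.6 to 86.3%) and is lowest after CD40L (10.4 to 30.0%), while the *Icam1* share is 14.95 to 18.9% *ex vivo* and 81.6 to 88.5% after CD40L.

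The comparison of *Sh3gl1*-/- with WT cells asks what loss of endophilin A2 did to these genes in each state. The α4 chain was the only member called, lower in *Sh3gl1*-/- follicular cells: 1 of 10 members, where 0.845% of all genes were called. WT follicular libraries had 252, 238 and 265 CPM of *Itga4* and *Sh3gl1*-/- libraries 179, 202 and 170.5 CPM, a decrease of 1.37-fold (1.20 to 1.57, log2 -0.46 ± 0.09, adjusted p = 0.046). The call was close to the threshold. It was lost in 5 of the 6 fits that left out a library (adjusted p = 0.098 to 0.23, kept without *Sh3gl1*-/- replicate 2) and in the fit of all 18 libraries (0.064), while the log2 change kept between -0.53 and -0.41. T and NK cell markers, from cells that also express *Itga4*, were higher in *Sh3gl1*-/- follicular cells, with 3 of 10 called, and neutrophil markers summed to 178 to 788 CPM against 71.3 to 172 CPM. Their part was not tested.

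In transitional cells *Itga4* had 260.3, 247 and 313 CPM in WT and 227, 239 and 213 CPM in *Sh3gl1*-/- libraries (log2 -0.27 ± 0.11, adjusted p = 0.18). After CD40L it had 124, 139 and 135 CPM in WT and 109, 108 and 115 CPM in *Sh3gl1*-/- libraries (log2 -0.24 ± 0.12, adjusted p = 0.71). Neither passed, and in each of the 3 states every *Sh3gl1*-/- library lay below every WT library. This held for 1 of the 9 members tested in all states, *Itga4*, and for 81 of 12397 genes (0.653%). The summed CPM of 7 marginal zone B cell markers had the same order in each state, at 609 to 704 in *Sh3gl1*-/- against 857 to 906 in WT transitional cells, 759 to 927 against 962 to 1191 in follicular cells and 368 to 431 against 475 to 629 after CD40L. Of these 7 genes, *Cd1d1* was called lower in transitional cells and none in the other states. *Cr2*, also on the list of transitional and follicular markers, had the most counts (11814 to 12830 in WT and 7950 to 10605 in *Sh3gl1*-/- follicular libraries). In follicular cells the sum therefore largely follows *Cr2*. In transitional libraries *Cr2* had 6549 to 7897 counts in WT and 5966 to 6898 in *Sh3gl1*-/- cells. *Cd1d1* had 2874 to 3600 and 1818 to 2488 counts there. *Asb2* went the other way in follicular cells, with 15 to 20 counts in *Sh3gl1*-/- and 7 to 9 in WT libraries. The part of marginal zone B cells in the *Itga4* difference was not tested.

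In transitional cells 0 of 10 members were called by edgeR, against 3.73% of all genes (2996 genes had an unadjusted p under 0.05). Among the members 3 had an unadjusted p under 0.05: *Itgb2*, *Itga4* and *Icam1*. The nearest to a call was *Itgb2*, with 285, 241 and 222 CPM in WT and 195, 173 and 174 CPM in *Sh3gl1*-/- libraries. The ranges did not touch. Its decrease was 1.38-fold (1.16 to 1.63, adjusted p = 0.0505), just short of a call. It was called by DESeq2 (adjusted p = 0.0021), with either other filter on low counts (0.0019 and 0.043) and without WT replicate 3 (0.048). These were 4 of the 12 alternative fits, and in the others the adjusted p reached 0.21. The summed macrophage markers were not lower in *Sh3gl1*-/- transitional cells (578 to 1012 CPM against 639.6 to 753 CPM). Other lists did differ without overlap in the same libraries. The marginal zone sum, in which *Cr2* had the most counts, was lower, with *Cd1d1* called (log2 -0.69). The sums of 7 plasma cell markers (1390 to 4912 against 832 to 1086 CPM, with *Jchain* called at 2.35 and *Mzb1* at -0.44) and of 10 neutrophil markers (121 to 565 against 53.1 to 96.3 CPM) were higher. Their part in the *Itgb2* difference was not tested. *Icam1* was also lower without overlap, at 57.6, 64.7 and 67.6 CPM against 69.2, 77.7 and 75.8 CPM (log2 -0.23 ± 0.10, adjusted p = 0.21). *Itga6* was higher without overlap, at 15.6, 15.6 and 16.2 CPM against 14.5, 11.8 and 12.4 CPM (log2 0.29 ± 0.15, adjusted p = 0.29). The members whose every *Sh3gl1*-/- library lay below every WT library numbered 3 of 10 in transitional cells (14.4% of all genes), 2 of 10 in follicular cells (*Itga4* and *Itgal*, 7.98%) and 1 of 9 after CD40L (*Itga4*, 7.62%).

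After CD40L 0 of 9 members tested were called in *Sh3gl1*-/- against WT cells, with 0.0227% of all genes called and 932 genes at an unadjusted p under 0.05 (none of them members). DESeq2 called 79 genes and no member. *Itgax* was not tested there because its counts were too low. The intervals were widest for *Itgb7* (log2 -1.43 to 0.97) and *Itga6* (-0.51 to 0.98), and the *Icam1* difference was -0.15 (-0.63 to 0.32). The *Itgal* estimates were -0.21 in transitional, -0.19 in follicular and -0.22 in CD40L cells on the log2 scale, and none passed. *Itgax* had 7, 27 and 54 counts in WT and 122, 41 and 53 counts in *Sh3gl1*-/- transitional libraries, a log2 difference of 1.02 ± 0.64 that did not pass (adjusted p = 0.39). The *Sh3gl1*-/- library with 122 counts also had the highest sum of dendritic cell markers (69.7 CPM, against 26.3 to 32.8 CPM in the other 5 transitional libraries) and of macrophage and neutrophil markers.

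**Figure D5:**
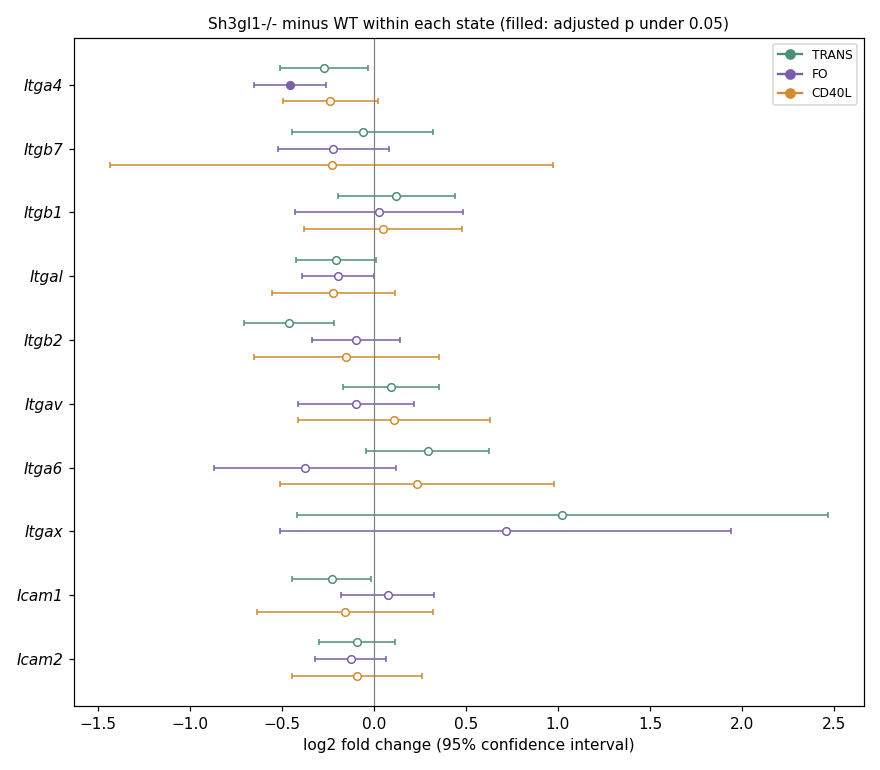
Log2 fold changes of *Sh3gl1*-/- minus WT cells (x axis) with 95% confidence intervals for the 10 members in transitional (green), follicular (purple) and CD40L-cultured cells (orange, without *Itgax*, which was not tested there), filled where the adjusted p was under 0.05. *Itga4* is left of 0 in all 3 states and is filled in follicular cells alone, and *Itgb2* in transitional cells (-0.46) has an interval that excludes 0 but an adjusted p of 0.0505.

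The other genes of integrin adhesion were counted from 4 lists with 73 genes in all. These were 18 other subunits, 13 other ligands, 22 activation regulators and adaptors, and 20 linked signalling proteins. The regulators include genes that restrain integrins or Rap1 as well as genes that switch them on. After CD40L, 8 of 46 tested were called higher and 19 lower in WT cells, and 11 higher and 16 lower in *Sh3gl1*-/- cells. Over all genes 23.6% were called higher and 25.7% lower in WT, and 20.6% and 21.8% in *Sh3gl1*-/- cells. The median log2 change of the 18 activation regulators and adaptors tested was -0.29 in WT, beside -0.08 over all genes. In *Sh3gl1*-/- cells it was 0.07, beside -0.03. Calls went both ways, with 5 higher and 8 lower in WT and 5 higher and 6 lower in *Sh3gl1*-/- cells. In the difference of the responses between genotypes 0 of the 18 were called (median 0.12), so a reversed response was not shown. Activators of Rap1, the GTPase that switches integrins on, split: *Rasgrp2*, an exchange factor for Rap1, fell by 3.84 on the log2 scale in WT (108 to 130.0 CPM against 4.46 to 11.7 CPM), whereas the exchange factors *Rapgef1* and *Rasgrp3* rose by 1.14 and 1.02. The adaptors *Skap1* and *Fyb*, which link Rap1 signalling to integrins, fell by 2.29 and 1.86 in WT and by 2.31 and 1.76 in *Sh3gl1*-/- cells. T cells also use both adaptors, and all 10 T and NK cell markers were called lower in the same comparison (median log2 -2.88 and -3.01), and their part was not tested. *Rap1b* and the Rap1 effector *Rassf5* fell by 1.25 and 0.73 in WT. *Fermt3*, the kindlin of blood cells, rose by 0.86 in WT, where it was called, and *Ptk2b*, the focal adhesion kinase relative PYK2, fell by 0.94. *Itgb1bp1* and *Dok1*, on the restraining side of the regulators, rose by 0.87 and 1.03 in WT and by 0.79 and 1.03 in *Sh3gl1*-/- cells. Of the ligands, *Madcam1*, the partner of LPAM-1, had 0 to 5 counts in follicular and 20 to 71 counts in CD40L libraries and was called higher in both genotypes, and *Vcam1* had 104 to 387 and 0 to 16 counts and was called lower. Splenic macrophages express *Vcam1*. Of 9 macrophage and monocyte markers tested, 7 were called lower and 1 higher in each genotype (median log2 -4.08 in WT and -3.52 in *Sh3gl1*-/- cells). Their part in the *Vcam1* change was not tested.

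Between stages, 9 of 48 tested list genes were called higher and 18 lower in WT follicular cells, and 2 higher and 9 lower in *Sh3gl1*-/- cells, where the block within genotype raised the total from 11 to 20. Without the block the shares of the list called were 56.2% and 22.9%, beside 25.9% and 10.4% of all genes. *Fermt3* and *Rassf5* were lower in WT follicular than transitional cells, at -0.93 and -0.59 on the log2 scale. The subunits *Itgad* and *Itga9* were lower in both genotypes, with *Itgad* at 125 to 343 counts in transitional and 2 to 34 counts in follicular libraries. Splenic macrophages express *Itgad*, and the macrophage and monocyte markers were lower in the same comparison (10 of 10 called in WT and 7 of 10 in *Sh3gl1*-/- cells, median log2 -2.94 and -2.65), and their part was not tested. Between genotypes, 0 of 46 were called higher and 3 lower in transitional cells (*Nedd9* -0.91, *Fermt3* -0.62 and *Rassf5* -0.42 on the log2 scale), 2 of 42 higher and 0 lower in follicular cells (*Fyb* 0.93 and *Rasgrp3* 0.38), and 0 of 40 after CD40L, beside 3.73%, 0.845% and 0.0227% of all genes. The rise of *Fyb* in follicular cells stood beside T and NK cell markers that summed to 302 to 369 against 196 to 234 CPM, with 3 of 10 called higher, and their part in it was not tested. *Fermt3* had 292 to 325 CPM in WT and 189.9 to 229 CPM in *Sh3gl1*-/- transitional libraries, without overlap. The α4 and β2 chains (log2 -0.27 and -0.46, neither called) were also lower there without overlap, as were 14.4% of all genes. *Itga6* was higher there without overlap, but it was not called either (log2 0.29, adjusted p = 0.29). The share of all genes that were higher without overlap was not computed. Whether the integrin genes moved as 1 set was therefore not tested.

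The genes most like the 3 members with the widest range of group means were listed by Pearson's r of log2 CPM over the 18 libraries, among 15117 genes. *Icam1* was closest to *Tnfaip3* (r = 0.992), *Pgk1* (0.992) and *Pa2g4* (0.992), *Itgb7* to *Gstp-ps* (0.984), *Itsn2* (0.983) and *Cisd3* (0.982), and *Itgax* to *Gstt2* (0.957), *Serpinb6b* (0.954) and *Gatd1* (0.949). These values describe libraries that share 3 cell states.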

How the data were processed

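Poly(A) RNA of 18 libraries, 6 groups of 3, was sequenced from mouse B cells; groups and replicate numbers came from the sample titles. The deposited table held RSEM expected counts, TPM and FPKM per gene, made by the authors from reads trimmed with cutadapt 1.9.1 and aligned to GRCm38 with STAR 2.5.2a before RSEM 1.3.0, per the labels. The study's methods name another library kit and aligner. The strand setting of the counting is not given in the sources used here. FPKM values, as deposited, entered no test. Of 51912 gene identifiers 51719 had a symbol.

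Expected counts were rounded (28.5 to 31.0% of values above 0 were not whole) and fitted with edgeR 4.0.16 (R 4.3.3): TMM, filterByExpr, quasi-likelihood test, Benjamini-Hochberg adjustment over all genes tested, called at an adjusted p under 0.05. Genotypes were compared within a state on 6 libraries, states within a genotype and differences between genotypes on 12. Standard errors were taken from the F statistic. TPM ratios were compared by two-sided exact permutation tests (SciPy 1.17.1), which cannot go below 0.1. Alternatives were DESeq2 1.42.0, RLE size factors, 2 other filters on low counts, all 18 libraries in one fit, a replicate block, and leaving out each library. The fits were tested on simulated data. All 18 pairs of replicates differed by more than sampling noise.

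Same-numbered libraries of opposite genotype did not deviate together (r of deviations from group means -0.0875 to 0.101). Within a genotype the transitional and follicular libraries did (0.103 to 0.263), as did WT follicular and CD40L libraries (0.136 to 0.224) and less so the *Sh3gl1*-/- ones (0.0304 to 0.119). The block within genotype was added after seeing the data.

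The members and gene lists were chosen with earlier results of these data known. Named were the 10 members in every comparison, *Sh3gl1*, up to 5 called genes per list and direction with the lowest adjusted p, and the 3 genes most like each of the 3 members with the widest range. Promoter sequence was from RefSeq, where 6 of 10 members matched.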

Additional observations from a re-analysis of the deposited data

How the results depend on the processing

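A sign change was counted only where the value exceeded its SE in either fit. Of 1488 refitted values of members, 69 changed sign, 2 of them by that rule and 0 of a called value. Both were differences of the CD40L response between genotypes with a library left out: *Itgb7* ranged from -0.37 to 0.61 (0.61 without WT CD40L replicate 1) and *Itgax* from -0.70 to 2.57 (-0.70 without *Sh3gl1*-/- CD40L replicate 1). The cause was not tested. Between genotypes in follicular cells, the 1 member called became 0 with all 18 libraries in one fit and 0 to 1 with a library left out, and the 2 adhesion list genes became 0 and 0 to 1. In transitional cells the 0 members called became 1 by DESeq2, 1 with all genes of at least 1 count, 1 with at least 10 counts in every library of a group and 0 to 1 with a library left out, and the 3 list genes became 13, 12 and, with all libraries fitted together, 0 (0 to 4 with a library left out). After CD40L the 0 list genes became 1 with all genes of at least 1 count.

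Between stages in *Sh3gl1*-/- cells, the 1 member called became 4 by DESeq2, 4 with all genes of at least 1 count and 1 to 3 with a library left out, and the 11 list genes became 6 with all libraries fitted together and 6 to 12 with one left out. The difference of stages between genotypes had 0 list genes, and 3 by DESeq2 and 3 with all genes of at least 1 count. With the replicate block within genotype these became 2 members, 20 list genes and 2 list genes, in that order. Over all genes, the calls in *Sh3gl1*-/- against WT cells moved from 115 to 212 (follicular), from 514 to 90 (transitional) and from 3 to 21 (CD40L) under the replicate block between genotypes, where same-numbered libraries shared only a number. DESeq2 called 355, 1361 and 79, all genes of at least 1 count gave 602, 1426 and 216, and all libraries together gave 49, 144 and 82. The response difference went from 0 to 37 by DESeq2 and 210 with all genes of at least 1 count, and the stage difference from 10 to 365, 462, 0 with all libraries together, 20 with the block and 99 with the block within genotype.

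With 3 libraries a group, members at low counts (*Itgax*, *Itgb7* after CD40L) had the widest intervals.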
